A study of Caenorhabditis elegans with 2 samples.

Results

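The genes described are rpr-1, which encodes the RNA subunit of RNase P, mrpr-1, which encodes the RNA subunit of RNase MRP, and ints-8, the Integrator subunit gene in which rpr-1 lies. They are 3 of 46890 genes that Ensembl places on the 6 C. elegans chromosomes. They were chosen by peak signals already known from these data, so their presence in the lists, signals and ranks are given as a description. A region was counted when its summit lay within 1000 bp of either RNA gene or inside ints-8. By that rule there were 2 regions in the optimal list and 3 in each of the pooled, replicate 1 and replicate 2 lists, 11 in all. For comparison, an optimal summit lay within 1000 bp of 5.63% of the 7764 genes annotated as ncRNA, the class that holds rpr-1 and mrpr-1, and from that share nothing is read about genes chosen by their peaks.

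The data came from ChIP-seq with an anti-GFP antibody on whole young adult worms of strain OP606. They were collected 63 h after L1 larvae had been synchronised by starvation, and the chromatin was sonicated. The strain is unc-119(tm4063) III with the transgene wgIs606, which expresses F52B5.7 fused at the C terminus to GFP-FLAG. The samples are 2 biological replicates of this 1 group, from pooled males and females of 1 transgenic line, and a whole-animal sample cannot say in which cells binding occurred. The control experiment that the labels name was not analysed here. RNase P cuts the 5′ leader from tRNA precursors, and RNase MRP, which shares most of its proteins with RNase P, cuts precursors of ribosomal RNA. In many animals, the genes of both RNAs are read by RNA polymerase III from elements placed before the transcript, as U6 snRNA genes are: a proximal sequence element bound by the SNAP complex, and a TATA box. Integrator, of which INTS8 is a subunit, trims the 3′ ends of snRNAs made by RNA polymerase II and acts on many other short transcripts.

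The sequence before mrpr-1 is shown first because it holds elements that rpr-1 has as well, and that a few snRNA genes share. In the lines that follow, taken from the RefSeq WBcel235 (ce11) sequence and written 5′ to 3′ on the strand of each gene, capitals mark the bases AACCC and TGTC where exactly 6 bases lie between them, and TATATA. Each line holds the 100 bp that end at the base before the gene. The mrpr-1 line is chrII:7200133-7200232 (plus strand). The R07E5.16 line, of an snRNA gene, is chrIII:10989579-10989678 (plus strand). The line of the snRNA gene WBGene00195000, which Ensembl names F54D8.7, is chrIII:5080899-5080998 (minus strand). Another gene with that name, WBGene00195002, is shown at chrIV:4885650-4885749 (minus strand), and the snoRNA gene W05B2.9 at chrIII:10976747-10976846 (minus strand). The last line is from sls-2.8, an SL2 spliced leader gene, at chrIII:12250365-12250464 (plus strand), and has the first element alone.
mrpr-1: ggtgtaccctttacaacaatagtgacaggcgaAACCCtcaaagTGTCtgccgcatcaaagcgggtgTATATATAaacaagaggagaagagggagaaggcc
R07E5.16: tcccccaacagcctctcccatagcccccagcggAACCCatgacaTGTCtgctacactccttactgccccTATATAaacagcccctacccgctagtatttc
WBGene00195000: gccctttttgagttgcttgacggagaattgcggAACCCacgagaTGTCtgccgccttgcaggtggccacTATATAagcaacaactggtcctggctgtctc
WBGene00195002: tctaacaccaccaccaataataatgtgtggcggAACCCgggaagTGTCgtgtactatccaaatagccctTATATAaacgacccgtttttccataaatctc
W05B2.9: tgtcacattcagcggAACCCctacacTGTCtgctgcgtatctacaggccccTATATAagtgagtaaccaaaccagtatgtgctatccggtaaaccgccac
sls-2.8: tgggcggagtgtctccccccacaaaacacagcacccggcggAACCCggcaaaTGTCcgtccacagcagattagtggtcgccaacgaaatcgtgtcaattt

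The mrpr-1 gene itself, with the 20 bases after its end (chrII:7200233-7200438, plus strand), is shown because the summit lies inside it. Capitals mark the summit base of the optimal peak and the run of 4 T near the 3′ end, the kind of run at which RNA polymerase III stops. Unmarked runs of 4 T also occur inside the gene, soon after the summit, and in the bases after the gene.
mrpr-1 gene: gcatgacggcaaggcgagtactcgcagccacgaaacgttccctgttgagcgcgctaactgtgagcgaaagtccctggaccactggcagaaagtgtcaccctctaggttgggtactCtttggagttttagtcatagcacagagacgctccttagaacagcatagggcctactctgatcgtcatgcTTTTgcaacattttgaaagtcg

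Both RNA genes carried an optimal peak, and the one at rpr-1 was the stronger. The lists are those of the authors for ce11. An optimal peak is a pooled candidate that passed their filter on irreproducible discovery rate, which measures how well ranks match between lists. Signal is the authors' own value for each region, with no stated scale, so ranks by signal were compared within a list. The optimal list held 1032 peaks with signals from 115 to 2950 and a median of 147. The pooled and replicate lists were each cut at 30000 candidates, and the read depth behind them is unknown.

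The rpr-1 region (chromosome I, 13463810 to 13464117, ce11) had a signal of 504 and rank 10 of 1032. It was also rank 10 of the 30000 pooled candidates, at 11.0 times their median signal. In replicate 1 its signal was 256 at rank 9, and in replicate 2 it was 248, again at rank 9. The rank was thus nearly the same in each library taken alone. The peaks next to it in the optimal list had signals of 511 at rank 9 and 441 at rank 11.

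The mrpr-1 region (chromosome II, 7200153 to 7200542) had a signal of 260 and rank 73 in the optimal and pooled lists, 5.64 times the pooled median. Its signal was 129 at rank 110 in replicate 1 and 131 at rank 93 in replicate 2. It too was among the strongest regions of each library, though below rpr-1. The signal at rpr-1 was 1.94 times that at mrpr-1 in the pooled list, 1.98 times in replicate 1 and 1.89 times in replicate 2. The −log10 q value that the authors gave was at its ceiling for both regions, 2.98 in the optimal list, as it was for 476 peaks of that list.

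**Figure D1:**
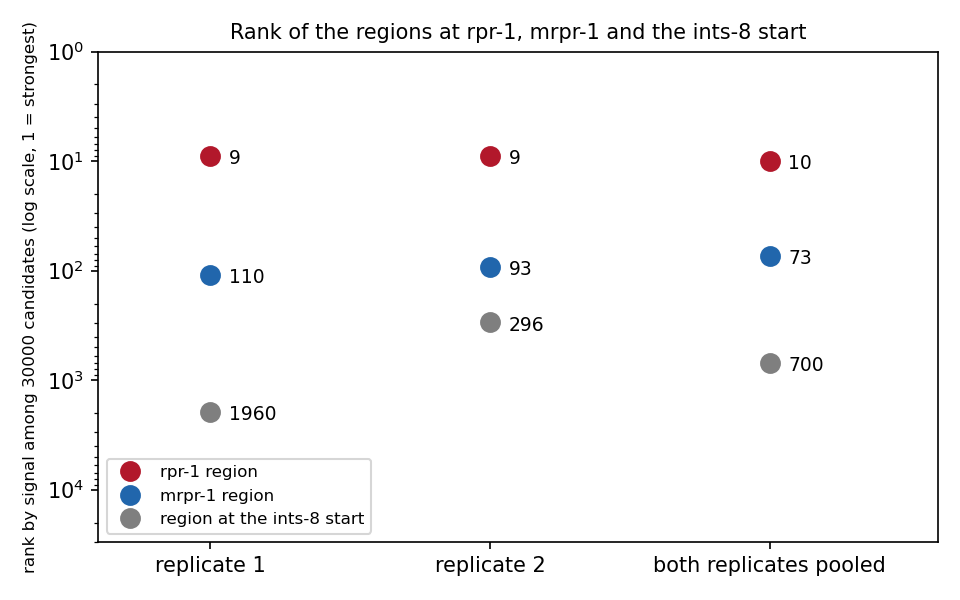
Rank by signal (log axis, strongest at the top) of the regions at rpr-1, mrpr-1 and the ints-8 start among the 30000 candidates of replicate 1, replicate 2 and both replicates pooled. The rpr-1 region is at rank 9, 9 and 10 and the mrpr-1 region at 110, 93 and 73, while the region at the ints-8 start is at 1960, 296 and 700.

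Among the small RNA genes, the rpr-1 peak was near the top. Of the 1032 optimal peaks, 359 had a summit within 250 bp of a tRNA, snoRNA, snRNA or ncRNA gene, and by signal rpr-1 was number 5 of these and mrpr-1 number 40. Those above rpr-1 were, by the nearest such gene, at the snoRNA gene ZK994.7 (signal 777), the ncRNA gene T03F7.14 (629), the snoRNA gene C51F7.4 (596) and the snoRNA gene W03C9.9 (588). Next below it came the ncRNA gene Y65B4BR.10 (430), the snoRNA gene Y23H5B.10 (417), the ncRNA gene R12E2.18 (390), the snRNA gene sup-6 (379) and the ncRNA gene T19B4.9 (371). Several of these peaks have more than 1 such gene within 250 bp, so the gene named is only the nearest.

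Peaks near other small RNA genes were common in some classes. The share of ncRNA genes with an optimal summit within 1000 bp, 5.63%, has a 95% exact Clopper-Pearson interval of 5.13 to 6.16. The share was 16.3% of snRNA genes (10.4 to 23.8), 25.7% of snoRNA genes (21.2 to 30.7) and 35.0% of tRNA genes (31.2 to 38.9). Among the tRNA genes are the templates of the RNAs that RNase P cuts. None of the 20 rRNA genes annotated had one (0%, interval 0 to 16.8). How far reads can be placed at those genes was not tested. For protein-coding genes the share was 6.52% (6.19 to 6.88). These intervals cover counting error only.

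The rpr-1 summit lay at the start of the RNA gene. The gene spans 13463955 to 13464207 on the plus strand (253 bp, WBGene00045238), and the optimal summit at 13463962 was 7 bp past its 5′ end. The summit of replicate 1 was at -2 bp, just upstream of that end, and that of replicate 2 was 15 bp downstream, 17 bp apart. With an SD of 12 bp over the 2 replicates, the summit cannot be told from the 5′ end itself. The region reached from 145 bp upstream to 163 bp into the gene, 64.4% of its length. It was 308 bp wide, narrower than the 390 bp of most regions. Replicate 2 alone had a further, weaker region whose summit was 219 bp past the 5′ end (signal 36.4, rank 6173), and replicate 1 had none there.

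The mrpr-1 summit lay inside the RNA gene and past its middle. The gene spans 7200233 to 7200418 on the plus strand (186 bp, WBGene00045095), and the optimal summit at 7200348 was 115 bp past its 5′ end and 70 bp short of its 3′ end. The replicate summits were 112 and 115 bp past the 5′ end, 3 bp apart. The region covered the whole gene, with 80 bp before it and 124 bp after it. It has the usual width of 390 bp, which 833 of 1032 optimal peaks (80.7%) share, and in all 833 the summit is given at the region's centre. The replicate regions at mrpr-1 were likewise of the usual widths of those lists, 360 and 424 bp. The distance of the summit from the 5′ end, 7 bp at rpr-1 and 115 bp at mrpr-1, therefore comes from regions of different kinds. Measured at the centre of the region for both, it was 8.5 bp at rpr-1 and 114.5 bp at mrpr-1.

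**Figure D2:**
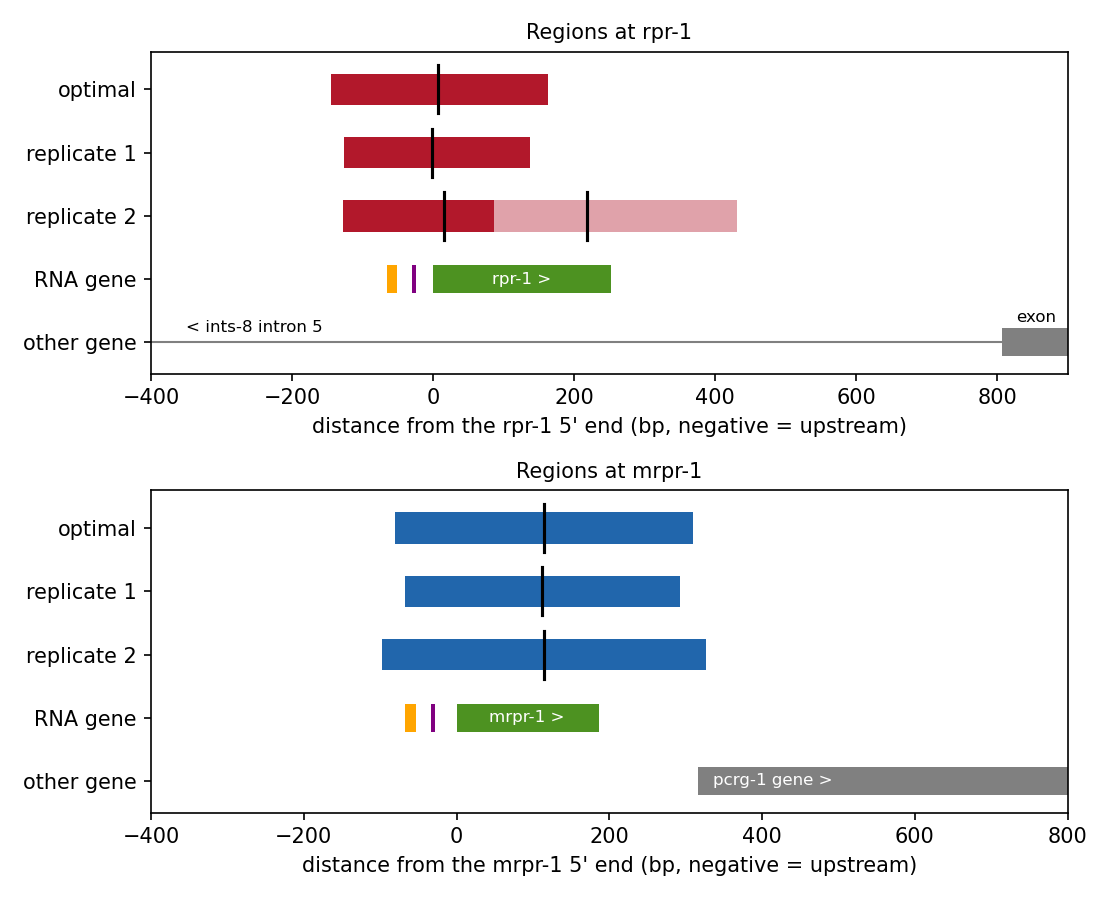
Regions at rpr-1 (top) and mrpr-1 (bottom) in the optimal, replicate 1 and replicate 2 lists, against the distance in bp from the 5′ end of the RNA gene; black lines are summits, the pale bar is the weaker replicate 2 region, and green bars are the RNA genes. The orange and purple marks are the 2 upstream elements, grey is ints-8 (top) or pcrg-1 (bottom), and the rpr-1 summits lie within 15 bp of the gene's 5′ end while those of mrpr-1 lie 112 to 115 bp past it.

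Other small RNA genes show how far summits spread around 5′ ends. For the 19 optimal peaks near snRNA genes, spliced leader genes included, the median summit was 94 bp past the 5′ end of the nearest such gene (quartiles 33 and 181). Of these, 8 lay as far downstream as mrpr-1 or farther. For 165 peaks near tRNA genes the median was 27 bp past the 5′ end (quartiles -5 and 56), and 6 lay as far downstream as mrpr-1. For 63 peaks near snoRNA genes it was upstream, at -34 bp (quartiles -49.5 and 13.5), and again 6 lay that far. In all 3 classes, every summit that far downstream lay past the 3′ end of its gene. Most of those genes are shorter than 115 bp, so a summit that far downstream could not lie inside them. The mrpr-1 gene is longer, at 186 bp, and its summit lay inside it, 70 bp short of the 3′ end. No contrast in binding is read from this. Summits within 50 bp of the 5′ end, as at rpr-1, made up 26.3%, 70.3% and 60.3% of these peaks for snRNA, tRNA and snoRNA genes. In bp from the 5′ end alone, rpr-1 and mrpr-1 both lie within the range of every class compared. These ranges were -90 to 265 bp for snRNA, -137 to 317 bp for tRNA and -121 to 400 bp for snoRNA genes. Each class was measured to its own nearest gene, so a peak may lie nearer to a gene of another class. The peak at rank 371 is in both the snRNA set (-90 bp) and the tRNA set (-42 bp). The peak at rank 15 is in the snRNA set at 99 bp, for sls-2.4, but lies 1 bp past the 5′ end of the ncRNA gene R12E2.18.

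**Figure D3:**
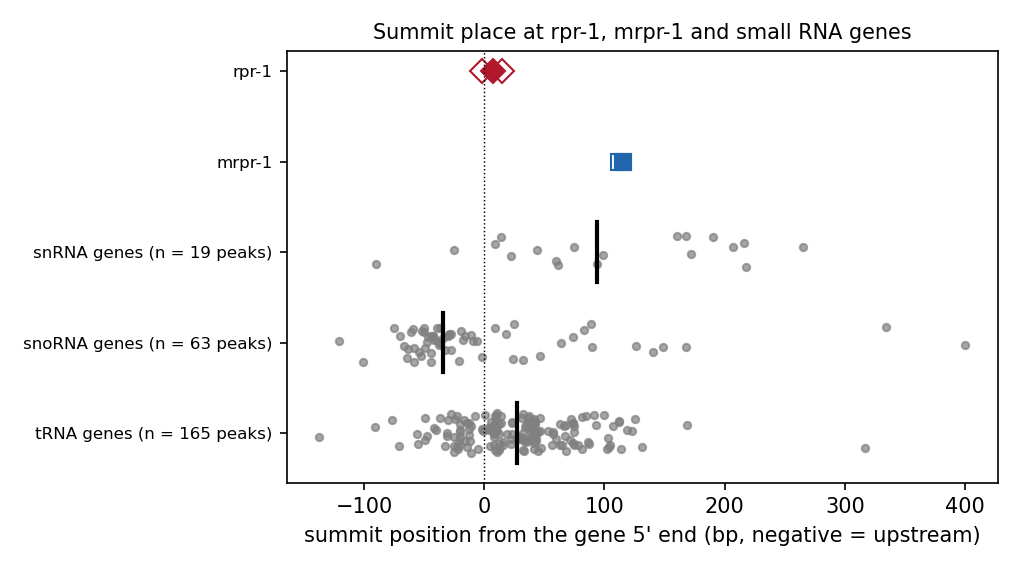
Summit position in bp from the gene's 5′ end at rpr-1 and mrpr-1 (filled, optimal list; open, each replicate) and for optimal peaks within 250 bp of snRNA, snoRNA and tRNA genes (grey points, spread vertically for legibility; black bars are medians). The rpr-1 summits sit at the 5′ end and those of mrpr-1 112 to 115 bp past it, beside medians of 94, -34 and 27 bp.

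The sequence elements before both RNA genes have nearly the same layout. At rpr-1, AACCC, 6 bases and TGTC occupy positions -66 to -52 from the 5′ end, and TATATA begins at -30, with 21 bases between. At mrpr-1 the first element occupies -68 to -54 and TATATA begins at -34, with 19 bases between. The optimal region contained both elements at each gene, since it began 145 bp before rpr-1 and 80 bp before mrpr-1. The summit lay 59 bp past the last base of the first element at rpr-1 and 169 bp past it at mrpr-1. A run of T begins 1 base before the last annotated base of each gene, 5 T at rpr-1 and 4 at mrpr-1. The search strings were set after the sequences had been seen, and a match is a description of letters, not a measured binding site.

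This layout was rare in the genome. The first element occurred 1848 times on the 6 chromosomes, both strands counted, and 31 of these (1.68%) had an optimal summit within 250 bp. With TATATA beginning 15 to 25 bases after it on the same strand there were 9 places, and 4 of them had an optimal summit (44.4%, exact interval 13.7 to 78.8). That share includes rpr-1 and mrpr-1, which were chosen by their peaks and whose sequences gave the search strings. Without them it was 2 of 7 places (28.6%, interval 3.67 to 71.0). Of the 1839 places without such a TATATA, 27 had one (1.47%), but only 67 of the 1839 lay up to 120 bp before a noncoding RNA gene on the same strand. Among places so placed, the share was 2 of 5 with TATATA, rpr-1 and mrpr-1 left out (interval 5.27 to 85.3%), against 19 of 67 without it (28.4%, interval 18.0 to 40.7). The interval without TATATA lies inside that with it, so no difference with TATATA can be read from them. The 4 places with both elements and a summit were rpr-1, mrpr-1, the snRNA gene R07E5.16 (signal 319, rank 35) and WBGene00195000 (signal 240, rank 105). Both snRNA genes also ranked high in replicates 1 and 2, at 61 and 28 for R07E5.16 and at 114 and 145 for WBGene00195000. In all 4 the first element ended 51 to 53 bases before the gene. In the 19 noncoding RNA genes with an optimal summit and the first element alone, it ended 40 to 80 bases before the gene (median 44).

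The other 5 places had no candidate within 250 bp in the pooled list or in either replicate list. One lay 70 bases before the snoRNA gene W05B2.9, one 52 bases before WBGene00195002 and one 52 bases before WBGene00195001, a further gene named F54D8.7 on chromosome IV. The other two were not followed by a noncoding RNA gene within 120 bp. Reads from repeated sequence are hard to place, so the 36-base words around each place were counted in the genome. All 273 in the rpr-1 region and all 355 in the mrpr-1 region occurred once. So did 100% of those around the W05B2.9 element, which had no peak. Around WBGene00195002 and WBGene00195001 the share was 74.3%, and around R07E5.16 and WBGene00195000, which had peaks, it was 75.7% and 75.4%.

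**Figure D4:**
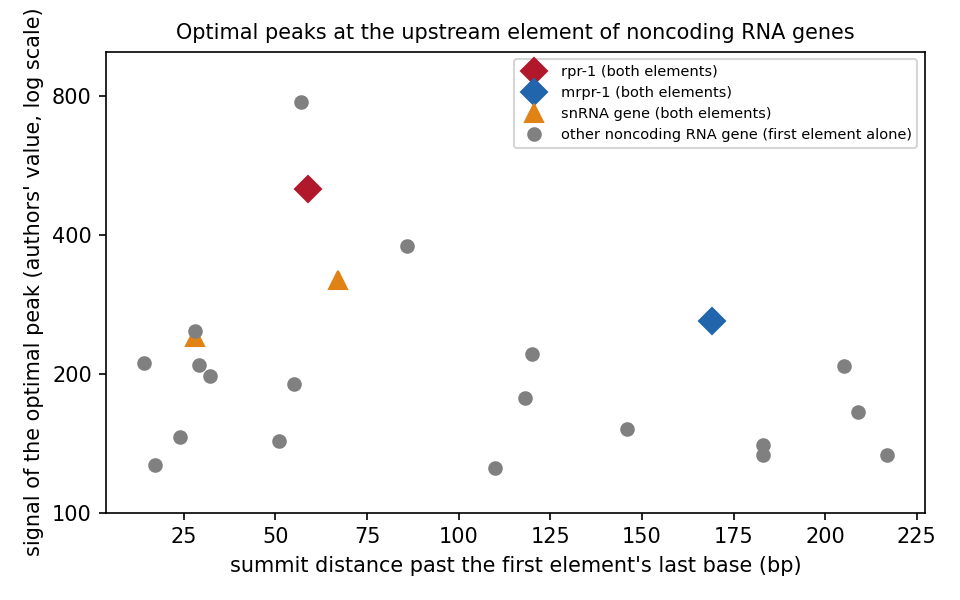
Signal of the optimal peak (authors' value, log axis) against the distance in bp from the last base of the first upstream element to the summit, for elements up to 120 bp before a noncoding RNA gene. The 4 genes with both elements and an optimal peak have signals of 504 (rpr-1), 260 (mrpr-1), 319 and 240 (snRNA genes). Genes with both elements but no optimal peak are not drawn. The summit distances run from 14 to 217 bp with a median of 67 bp over the 23 elements.

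Among genes in general, the 100 bp before the 5′ end held the first element, on either strand, for 0.193% of genes annotated as ncRNA. The share was 25.6% of snRNA genes, 7.8% of snoRNA genes, 0.163% of tRNA genes and 0.0401% of protein-coding genes. TATATA alone was found before 3.5%, 15.5%, 3.76%, 2.12% and 5.68% of the same classes. Both together were found before 2 of 7764 ncRNA genes, which are rpr-1 and mrpr-1, before 4 of 129 snRNA genes and 1 of 346 snoRNA genes, and before none of the 612 tRNA or 19973 protein-coding genes. In base composition, the 301 bp around the summit were 56.1% G or C at rpr-1 and 47.8% at mrpr-1, against a median of 43.9% over the optimal summits.

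The strongest region in ints-8 was the one at rpr-1. The ints-8 gene spans 13455356 to 13470371 on the minus strand of chromosome I (15016 bp, WBGene00013021), so it runs opposite to rpr-1, which is nested in it. The intron that holds rpr-1 is intron 5 of the long transcript Y48G10A.4a.1 and intron 1 of the short transcript Y48G10A.4b.1. It spans 13462739 to 13464761 (2023 bp), and rpr-1 ends 554 bp from the exon before it and starts 1216 bp from the exon after it. The summit was 6409 bp downstream of the start of the long transcript and 884 bp downstream of that of the short one. An optimal summit lay inside 2.51% of all protein-coding genes and inside 13.4% of the 404 that are at least as long as ints-8. Of the ncRNA genes nested, like rpr-1, in a protein-coding gene of the opposite strand, 81 of 2321 (3.49%) had an optimal summit within 250 bp, against 3.99% of all ncRNA genes. The share was 7.69% of 26 nested and 14% of all snRNA genes, 26.5% of 34 nested and 18.5% of all snoRNA genes, and 36.3% of 124 nested and 29.9% of all tRNA genes.

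The rest of ints-8 had little signal. The pooled list had a further summit in exon 9 of the long transcript (13459327, signal 32.2, rank 27553), and replicate 1 had one in the same exon (13459144, signal 32.0, rank 11465), with no such region in replicate 2. A separate optimal peak lay just outside the gene, and so outside the rule. It spanned 13470203 to 13470592, with its summit at -27 bp from the start of the long transcript, a signal of 132 and rank 700 of 1032. Its summit was at -30 bp in replicate 1 and at -56 bp in replicate 2. The replicates ranked it differently, at 1960 in replicate 1 (signal 55.1) and 296 in replicate 2 (94.6), so replicate 1 did not place it among its 1032 strongest regions. The rpr-1 region had 3.81 times its signal in the pooled list, 4.65 times in replicate 1 and 2.62 times in replicate 2. The neighbouring gene Y48G10A.3, on the same strand, ends 221 bp upstream of ints-8, at the edge of this region.

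At mrpr-1 the nearest protein-coding gene was pcrg-1, a homologue of the Parkin co-regulated gene. It starts 131 bp after mrpr-1 on the same strand, and the mrpr-1 summit was at -201 bp from its 5′ end, with the region ending 7 bp before it. By distance alone the peak could thus be assigned to the pcrg-1 promoter as well as to mrpr-1. The gene E04F6.6 starts 668 bp from mrpr-1 on the other side and is read away from it, with the summit at -783 bp from its 5′ end.

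Of the genes listed for proteins of the same machinery, those for RNase P and MRP and for tRNA processing had no optimal peak, while a few of the Integrator, RNA polymerase III and SNAP complex genes had one. For these, an optimal summit was counted from 1000 bp upstream of the gene to its end, which was the case for 4.38% of protein-coding genes. At that share, 0 in lists as short as those of 4 and 6 genes says nothing about them. Of the listed genes for RNase P and MRP proteins (popl-1, popl-4, popl-5 and popl-7) 0 of the 4 found in the annotation had one. Their best pooled ranks were 12188 for popl-1, 18345 for popl-4 and 27298 for popl-5, with no pooled candidate at popl-7. Of 6 genes listed by symbol for tRNA 3′ processing, splicing and ligation, 0 had one. The best pooled ranks there were 2570 at rtcb-1, the tRNA ligase gene, and 4757 at hpo-31, followed by 5300 at hoe-1, which encodes the enzyme that trims tRNA 3′ trailers.

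Of 11 Integrator genes, 3 had an optimal summit (27.3%), or 2 with promoter windows in place of gene bodies. Of the 3, 1 is ints-8 itself. The others were weak. At ints-7 the signal was 119 at rank 941, with the summit 4 bp past its 5′ end. At ints-11, which in human cells encodes the endonuclease subunit, it was 118 at rank 959. The ints-11 gene spans 8141209 to 8143478 on the minus strand. Its summit at 8141386, 2092 bp past the 5′ end, lay near the 3′ end. Neither the ints-7 nor the ints-11 region was among the 1032 strongest of replicate 1, where they ranked 2214 and 1730. In replicate 2 they ranked 821 and 723. The 13 genes listed by symbol for RNA polymerase III and its factors include tbp-1. The list also holds maf-1 beside mafr-1, and whether maf-1 belongs there was not checked. Of the 13, 2 had a summit (15.4%). They were rpc-2, a large subunit of that polymerase, with signal 170 and ranks 328 and 345 in the replicates, and rpac-19, a subunit shared with RNA polymerase I, with signal 163 and ranks 5023 and 130. Of 7 SNAP complex genes (14.3% with a summit), snpc-4 alone had one, which was the strongest peak of all (rank 1 in every list).

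Other RNA genes of the kind read from upstream elements varied. Of 36 genes with spliced leader or srpr symbols, or yrn-1, 9 had an optimal summit by the same count (25%). By that count the share was 10.9% of all snRNA genes, the class of the spliced leader genes, and 3.95% of all ncRNA genes, the class of the others. The 14 snRNA genes so counted include the 8 sls-2 genes given next, so that share is not independent of this list. The 12 sls-1 copies had no candidate in any list, while 8 of 18 sls-2 genes and 1 of 5 srpr genes had an optimal summit. How far reads can be placed at the sls-1 copies was not tested, so nothing is read from their lack of candidates. The strongest was at sls-2.4 (390, rank 15, the peak also nearest to R12E2.18), followed by sls-2.1 (330, rank 29) and sls-2.2 (301, rank 44), all SL2 spliced leader genes. Within 250 bp of the same summits, replicates 1 and 2 had candidates at ranks 16 and 15 for sls-2.4, 21 and 39 for sls-2.1, and 50 and 37 for sls-2.2. At sls-2.8, whose upstream sequence is printed with the first element alone, the signal was 221 at rank 149, with the summit 75 bp past the 5′ end and ranks of 249 and 76 in replicates 1 and 2. At sls-2.9 the signal was 163 at rank 371, with the summit at -90 bp. That summit lies nearer to the tRNA gene WBGene00014446, at -42 bp from its 5′ end. The other 3 sls-2 genes were counted through peaks that lie nearer to another sls-2 gene. The peak counted for sls-2.15 (208, rank 183) is 160 bp past the 5′ end of sls-2.14, that counted for sls-2.14 (177, rank 297) is 207 bp past that of sls-2.15, and that counted for sls-2.18 (133, rank 680) is 172 bp past that of sls-2.16. The srpr-2.2 gene had optimal summits at 154 and -49 bp from its 5′ end (signals 211 and 121). At yrn-1, the Y RNA gene, the replicate 1 list had a candidate 12 bp past the 5′ end (rank 1132). No other list had a candidate at that gene. The rpr-1 signal of 504 was above that of every gene in this list, and the mrpr-1 signal of 260 was below those of the 3 sls-2 genes named.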

How the data were processed

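Per the submitters' file manifests, the authors made each replicate's candidate list from the alignments of that replicate and a control, a pooled list from both replicates, and an optimal list from those lists by irreproducible discovery rate. No source used here gives the aligner, the peak caller or the thresholds. The deposited lists hold a signal value per region, used for ranks within a list, a −log10 q value, which reaches a ceiling, and a summit offset. Summits are the start column plus that offset, written 1-based. Gene models are Ensembl release 115 on WBcel235, the assembly of ce11, and no coordinates were converted. The ce10 optimal list entered 1 comparison of ranks, by width, summit offset and signal within 0.1%.

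Python 3.11.15 with pandas 2.3.3 and numpy 2.4.6 was used. No significance test was run, since there is 1 group and the genes were chosen with earlier results of these data known, as were the gene lists, and the sequence elements were chosen after the sequences had been seen. Named are the members, genes within 1000 bp of either RNA gene, listed genes with an optimal summit, and up to 5 noncoding RNA genes next above and below the strongest member by signal. Genes with both sequence elements, genes beside the ints-8 start, examples with low ranks and yrn-1 were named after their values were seen. On simulated data, a copy of the window count and of the search for the first element returned the planted answers. The pairing with TATATA and the assignment of elements to genes were not tested in that way. Intervals are 95% Clopper-Pearson. Alternatives are in the closing section.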

Additional observations from a re-analysis of the deposited data

How the results depend on the processing

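The 3 members kept a summit with windows of 250, 500 and 2000 bp, with region overlap, in the strongest 516 optimal peaks, among the 1032 strongest regions of either replicate and in the pooled list. In the optimal list they rest on 2 regions, because ints-8 is counted through the rpr-1 summit. The genes were chosen by these peaks, so keeping them is a description only. The rank of the rpr-1 region, 10 in the optimal list, was 9 with either replicate left out and 10 in the ce10 list of 992 peaks. Its summit position ran from -2 to 15 bp with 1 replicate left out, so the side of the 5′ end on which it falls is not settled. At mrpr-1 it ran from 112 to 115 bp. With promoter windows in place of gene bodies, 0 SNAP complex genes had a summit, against 1, because the snpc-4 summit lies 914 bp past the 5′ end and the window ends at 500 bp. The other counts of genes, with 250 bp windows or 1 replicate left out, stayed within 1.5 times. No paired analysis was possible because there is 1 group. Read depth is unknown, so what it limits cannot be stated.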
